A study of Mus musculus with 6 samples.

Results

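The genes described here are 37 genes associated with autism, read in mouse neocortex at stage E18.5. They were chosen by name, leaving out synaptic receptors, channels and factors of cortical layer identity, and all 37 were found among the 23420 genes of the count table. They were grouped by function into 16 genes of chromatin or transcription and 21 genes of signalling or other roles. The study sequenced RNA from neocortex of embryos labelled Tshz3 mutant (3 libraries) and wild type (3 libraries). Tshz3 encodes a teashirt-type zinc finger protein that regulates transcription, and the study's stated subject is its deletion, an autism syndrome and cortical projection neurons. Each library was 1 pool of cortices from 3 to 4 embryos drawn from several litters, so a value is an average over animals, and the spread is between pools. The sources used here name no allele, strain, litter or sex. Values are given as CPM, the reads of a gene scaled by its library's total after TMM normalization, and fold changes are mutant-labelled over wild type.

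Most of these genes are known from sequencing of people with autism, where damaging changes in a single copy recur. Many of them encode proteins that open, close or mark chromatin, such as the CHD remodellers, the BAF subunit Arid1b and the methyltransferase Suv420h1, and act while cortical neurons are being made and are maturing. Others act in growth signalling, where the Tsc1 and Tsc2 proteins hold back the kinase mTOR and the kinase Dyrk1a restrains division of neural progenitors. A further set works in the ubiquitin system, in cell adhesion, in the cytoskeleton or in control of translation by the fragile X protein Fmr1. For many of them the loss of a single copy is harmful.

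Total counts ran from 18569383 to 24147810 per library, and the 37 genes held 0.475% to 0.563% of them. Tshz3 itself stood at 89.8, 93.1 and 99.2 CPM in mutant-labelled libraries 1 to 3 and 78.7, 83.0 and 89.3 CPM in wild-type libraries 1 to 3, so its transcript was not lower in the libraries labelled mutant (adjusted p = 0.669, or 0.0525 with libraries paired by number). The count therefore gives no check of the genotype labels. Same-numbered libraries of the groups shared their deviations across genes, so a fit with the number as a block stands beside the fit without it. Markers of neocortical projection neurons were expressed, with a summed level of 2136 to 2329 CPM in mutant-labelled and 2014 to 2240 CPM in wild-type libraries, and Bcl11b and Fezf2 among them were higher with the block. None of the tested markers of progenitors, interneurons, glia, microglia, vessels, meninges, blood, striatum or thalamus passed in either fit, and the globin genes Hba-a1, Hba-a2 and Hbb-b1 were at 0. Their summed levels overlapped between the groups, the widest range being that of the 5 meningeal markers, at 50.5 to 221 CPM against 38.5 to 276 CPM. The meningeal sum was highest in both libraries numbered 1 and lowest in both numbered 3, and its part in the results was not tested.

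Without the block none of the 37 genes was called by edgeR (quasi-likelihood test, adjusted p threshold 0.05), where 0.0274% of all 14618 genes tested were called lower and 0.0479% higher. At an unadjusted p under 0.05, 4 of the 37 were lower and none higher, against 3% and 4.1% of all genes. DESeq2 called none of the 37. Of the 12913 genes to which it gave an adjusted p, it called 0.325% lower and 0.511% higher. With the library number as a block, 5 of the 37 fell, namely Chd2, Erbb2ip, Dyrk1a, Auts2 and Usp7, and none rose. The 5 are 13.5% of the 37 genes, where 1.49% of all genes tested were called lower, and 1.97% higher. The list was drawn up with earlier results of these data known, so such shares describe it and are no independent test. Without number 3 the fit with the block called 1 of the 37, Chd2. In 6 genes, Chd2, Erbb2ip, Dyrk1a, Usp7, Cul3 and Wac, every mutant-labelled library lay below every wild-type library, which is 16.2% of the 37 against 6.09% of all genes tested. No gene of the 37 had all its mutant-labelled libraries above, against 7.42% of all genes. Within numbers, 10 of the 37 (27%) were lower in mutant-labelled libraries in all 3 pairs and 2 (5.41%), Tsc1 and Dip2a, were higher in all 3, against 19.8% and 19.3% of all genes. The median log2 fold change of the 37 genes was −0.024, beside −0.00733 over all genes tested. In bulk tissue, fewer cells of a type and less RNA per cell cannot be told apart.

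**Figure D1:**
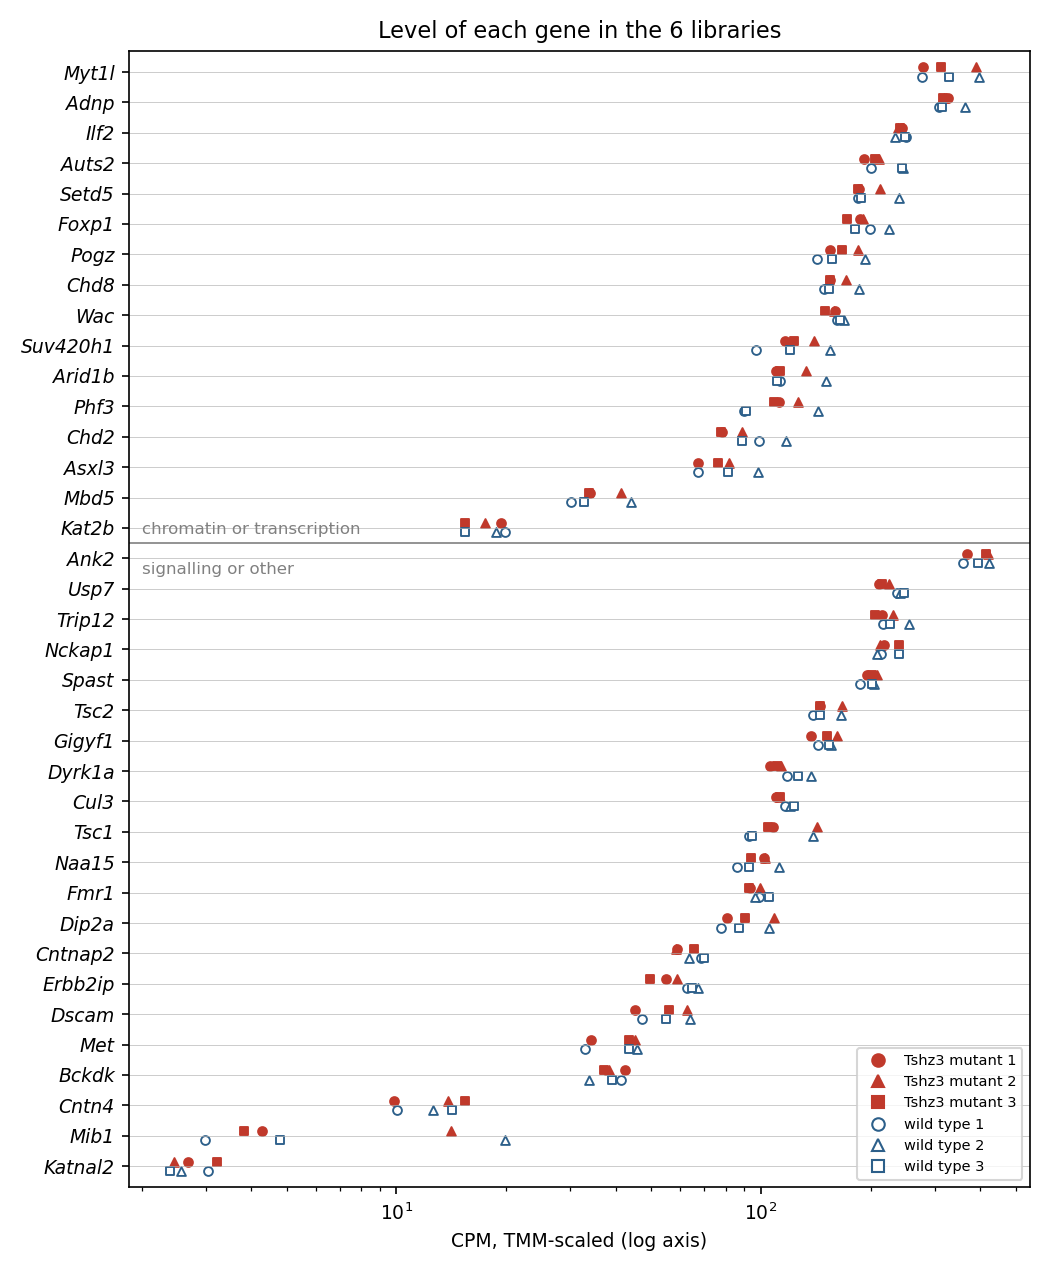
CPM of the 37 genes in each of the 6 libraries on a log axis, filled red for mutant-labelled and open blue for wild type, with the symbol giving the library number. Levels run from 2.73 CPM for Katnal2 to 396 CPM for Ank2 on average, and for many genes the triangles, the libraries numbered 2, stand to the right in both genotypes.

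RefSeq promoter windows of 3 of the genes that fell in the fit with the block are shown, since those genes are listed there. Each window runs from 250 bases before to 50 bases after a RefSeq start, 5′ to 3′ on the gene's strand, on build GRCm38.p6. Dyrk1a has 3 listed windows, of which the most upstream is shown (chr16:94569956-94570255, plus strand). Those of Erbb2ip (chr13:103920537-103920836) and Usp7 (chr16:8738293-8738592) are on the minus strand. The RefSeq start of Usp7 lies 54.0 kb inside the gene span that GENCODE gives, which begins at an upstream start. Capitals mark a match to 1 of 8 motifs searched on both strands.
Dyrk1a: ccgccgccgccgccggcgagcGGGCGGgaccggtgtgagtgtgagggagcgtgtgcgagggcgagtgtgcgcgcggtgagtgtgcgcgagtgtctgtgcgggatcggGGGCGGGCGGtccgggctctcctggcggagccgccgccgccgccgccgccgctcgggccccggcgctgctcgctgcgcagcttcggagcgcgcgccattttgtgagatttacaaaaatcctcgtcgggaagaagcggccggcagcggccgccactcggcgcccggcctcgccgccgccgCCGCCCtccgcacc
Erbb2ip: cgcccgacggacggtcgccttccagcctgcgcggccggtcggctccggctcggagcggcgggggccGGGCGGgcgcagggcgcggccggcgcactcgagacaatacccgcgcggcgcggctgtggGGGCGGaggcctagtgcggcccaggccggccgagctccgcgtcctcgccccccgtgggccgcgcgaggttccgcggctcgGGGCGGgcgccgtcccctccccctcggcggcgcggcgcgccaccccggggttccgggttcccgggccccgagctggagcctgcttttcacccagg
Usp7: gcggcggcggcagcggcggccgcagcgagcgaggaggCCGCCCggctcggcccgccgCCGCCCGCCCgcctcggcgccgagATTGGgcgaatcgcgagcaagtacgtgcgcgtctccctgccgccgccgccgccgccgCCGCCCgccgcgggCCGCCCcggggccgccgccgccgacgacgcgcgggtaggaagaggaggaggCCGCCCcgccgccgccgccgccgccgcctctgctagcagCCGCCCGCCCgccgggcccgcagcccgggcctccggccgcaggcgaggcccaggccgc
The 3 windows shown had a G and C content of 77.0%, 82.0% and 86.0%, against a median of 59.5% over the 46 windows listed for 29 of the 37 genes and of 52.7% over all 32851 windows. The other windows of Dyrk1a had 74% with 3 SP and KLF boxes, and 32% with none. In the windows shown, the capitals are the SP and KLF box GGGCGG, with 4, 3 and 8 matches that may overlap one another, and in Usp7 also 1 CCAAT box (CCAAT). At least 1 SP and KLF box was in 45.7% of the 46 windows and in 35.7% of all windows. The EGR motif GCGTGGGCG matched 1 of the 46 windows, in Ank2 (2.17% against 0.612% of all windows), and the cyclic AMP response element TGACGTCA none (1.79% of all windows). The palindromic motif of NRF1 was in both Fmr1 windows and no other (4.35% against 0.971%). The remaining motifs were the E-box CACGTG (10.9% against 7.15%), the ETS motif CCGGAAG (10.9% against 8.86%), CCAAT (37% against 37.4%) and the TATA box TATAAA (4.35% against 13.6%). A match describes the letters only, and windows of 1 gene can overlap.

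Among chromatin remodellers, Chd2 had the largest fall of the 37 genes past the test. Chd2 is an ATP-dependent remodeller of the chromodomain family, also known for its link to childhood epilepsy, and lies on chromosome 7 from 73426638 to 73541830 of GRCm38 on the minus strand. It stood at 78.1, 88.6 and 77.7 CPM in mutant-labelled libraries 1 to 3 and 98.7, 117 and 89.0 CPM in wild-type libraries 1 to 3. Both groups spread widely, yet the highest mutant-labelled library was below the lowest wild-type library, and the mutant-labelled value was lower within each number, by 0.34, 0.40 and 0.19 on the log2 scale for numbers 1, 2 and 3. The log2 fold change was −0.32 (SE 0.11, n = 3 per group, edgeR adjusted p = 0.548), a fall of 19.8%, and −0.32 (SE 0.050, adjusted p = 0.00268) with the block. Alone among the 5 genes, Chd2 also passed with any 1 number left out of the fit with the block, with adjusted p = 0.0036, 7.41e-05 and 0.0357 without number 1, 2 and 3, each of which leaves 1 residual degree of freedom. In the GENCODE annotation 18.4% of Chd2's exon length is shared with 1810026B05Rik, a non-coding transcript on the same strand, so reads could have been split between them. Exons of 14 of the 37 genes overlap another annotated gene, among them Tsc2 with Pkd1 and Ilf2 with Snapin on opposite strands. The kit marks strand, but the strand setting of the counting was not stated. That neighbour, looked up after the Chd2 value was seen, stood at 37.8, 35.0 and 32.7 CPM in mutant-labelled libraries 1 to 3 and 39.9, 43.0 and 47.7 CPM in wild-type libraries 1 to 3, a log2 fold change of −0.31 (adjusted p = 0.454, or 0.059 with the block).

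The other remodelling genes did not pass in either fit. Chd8, a remodeller of the same family often hit in autism, stood at 155, 171 and 155 CPM in mutant-labelled libraries 1 to 3 and 149, 186 and 153 CPM in wild-type libraries 1 to 3. All its mutant-labelled libraries lay inside the range of the wild-type ones, with a log2 fold change of −0.024 and a 95% interval of −0.24 to 0.19, narrowed to −0.11 to 0.072 with the block. For Arid1b, a DNA-binding subunit of the BAF complex, the log2 fold change was −0.071 (SE 0.13), and for Adnp, a homeobox zinc finger protein that works with the remodeller Chd4 at heterochromatin, −0.035 (SE 0.072). Per kilobase of exon Adnp was the most abundant of the 16 chromatin and transcription genes, at 61.2 ± 5.62 CPM per kb in wild type (SD, n = 3). It stood at 326, 318 and 315 CPM in mutant-labelled libraries 1 to 3 and 307, 362 and 313 CPM in wild-type libraries 1 to 3, and wild-type library 2 was the highest of the 6. Its count is uncertain, because another gene model on the same strand, Gm20716, covers 82.1% of its exon length.

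Of 7 genes for histone marks and their readers, none passed in either fit. Wac, an adaptor for the ubiquitin ligases that mark histone H2B, stood at 160.1, 159 and 149.9 CPM in mutant-labelled libraries 1 to 3 and 162, 169 and 164 CPM in wild-type libraries 1 to 3. All 3 mutant-labelled libraries were below all wild-type libraries, but by as little as 160.1 against 162 CPM, and the log2 fold change of −0.081 had an adjusted p of 0.825, or 0.315 with the block. Asxl3, a subunit of the complex that removes ubiquitin from histone H2A, had a log2 fold change of −0.13 (SE 0.14, adjusted p = 0.927, 0.261 with the block). The methyltransferase gene Suv420h1, now named Kmt5b, which adds methyl groups to histone H4 at a lysine, and the SET-domain gene Setd5 had log2 fold changes of 0.029 (SE 0.17) and −0.070 (SE 0.11). Phf3, whose protein binds RNA polymerase II, stood at 112, 126 and 109 CPM in mutant-labelled libraries 1 to 3 and 89.9, 143 and 91.2 CPM in wild-type libraries 1 to 3. Wild-type library 2 was the highest and wild-type libraries 1 and 3 were the lowest of the 6, so its wild-type SD was 30.4 CPM around a mean of 108 CPM. Its log2 fold change of 0.098 (SE 0.19) did not pass, though in the fit with the block and without number 2 it was 0.29 with adjusted p = 5.75e-06, in a fit that called 1118 of all genes higher. The acetyltransferase gene Kat2b was at 17.4 ± 1.95 CPM in mutant-labelled and 18 ± 2.31 CPM in wild-type libraries (SD, n = 3). Mbd5, which encodes a methyl-CpG-binding-domain protein, was the least abundant chromatin gene per length, at 1.81 ± 0.376 CPM per kb in wild type, and stood at 33.9, 41.4 and 33.8 CPM in mutant-labelled libraries 1 to 3 and 30.1, 44.0 and 32.7 CPM in wild-type libraries 1 to 3.

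Among 5 regulators that bind DNA or RNA, Auts2 fell with the block and the other 4 did not pass. Auts2, part of a Polycomb complex found to activate genes in neurons, spans more than a megabase of chromosome 5 from 131437333 to 132543344 on the minus strand. It stood at 192, 211 and 205 CPM in mutant-labelled libraries 1 to 3 and 200.1, 246 and 243 CPM in wild-type libraries 1 to 3. The groups overlapped, since wild-type library 1 lay below mutant-labelled libraries 2 and 3, and only within numbers was the mutant-labelled value always the lower, by 0.063, 0.22 and 0.24 on the log2 scale. Its log2 fold change was −0.18 (SE 0.087, adjusted p = 0.75), and −0.18 (SE 0.044, adjusted p = 0.0421) with the block. Without number 3 the blocked value was −0.14 with adjusted p = 0.486. For Foxp1, a forkhead repressor, the log2 fold change was −0.14 (SE 0.084), with an adjusted p of 0.112 with the block, and the value was lower within all 3 numbers. The neuronal zinc finger gene Myt1l stood at 278, 388 and 312 CPM in mutant-labelled libraries 1 to 3 and 276, 397 and 327 CPM in wild-type libraries 1 to 3, highest in the libraries numbered 2 and lowest in those numbered 1 in both genotypes, with a log2 fold change of −0.032 (SE 0.16). Pogz, which encodes a zinc finger protein of heterochromatin, and Ilf2, which encodes a nuclear factor that regulates transcription and RNA, had log2 fold changes of 0.037 (SE 0.12) and −0.019 (SE 0.051).

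**Figure D2:**
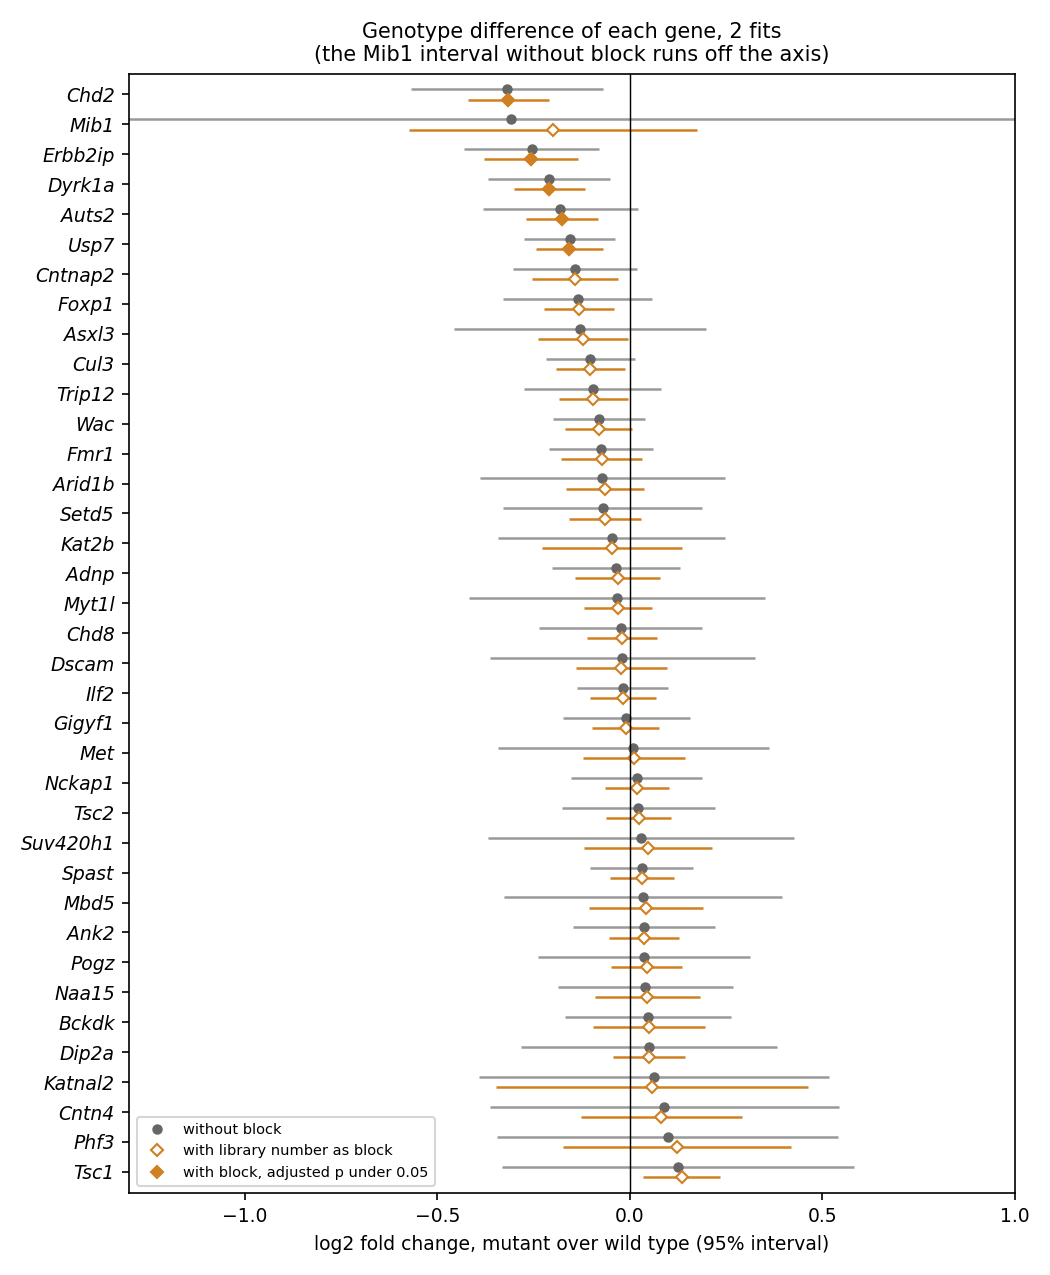
Log2 fold change of each of the 37 genes, mutant-labelled over wild type, with its 95% interval, in grey without and in orange with the library number as a block. Filled diamonds mark the 5 genes with adjusted p under 0.05 with the block, which sit between −0.32 and −0.16, and the intervals are not adjusted for the number of genes.

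In growth signalling, Dyrk1a and Erbb2ip fell with the block while the mTOR inhibitors Tsc1 and Tsc2 did not. Dyrk1a, a dual-specificity kinase whose gene dose is raised in Down syndrome, lies on chromosome 16 from 94570010 to 94695517 on the plus strand and stood at 106, 114 and 110.4 CPM in mutant-labelled libraries 1 to 3 and 118, 137 and 126 CPM in wild-type libraries 1 to 3. No libraries of the groups overlapped. The log2 fold change was −0.21 (SE 0.068, adjusted p = 0.515), and −0.21 (SE 0.043, adjusted p = 0.0162) with the block. Erbb2ip, now named Erbin, encodes a scaffold protein that binds the receptor Erbb2, and lies on chromosome 13 from 103818787 to 103920514 on the minus strand. It stood at 54.8, 58.9 and 49.5 CPM in mutant-labelled libraries 1 to 3 and 62.9, 67.3 and 64.7 CPM in wild-type libraries 1 to 3, again without overlap. For Erbb2ip the log2 fold change was −0.25 (SE 0.076, adjusted p = 0.472), and −0.26 (SE 0.057, adjusted p = 0.0236) with the block. Both calls were lost without number 3, where the adjusted p was 0.236 for Dyrk1a and 0.398 for Erbb2ip.

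Tsc1 stood at 108, 143 and 105 CPM in mutant-labelled libraries 1 to 3 and 92.7, 139 and 94.2 CPM in wild-type libraries 1 to 3. The libraries numbered 2 were far above the others in both genotypes, and within each number the mutant-labelled value was the higher, by 0.22, 0.038 and 0.15 on the log2 scale. The log2 fold change of 0.13 had an SE of 0.19, and with the block it was 0.13 (SE 0.047, adjusted p = 0.139), so it did not pass. Tsc2, its partner in the complex that holds back mTOR, had a log2 fold change of 0.022 (95% interval −0.062 to 0.11 with the block). Met, the receptor of hepatocyte growth factor, stood at 34.3, 45.1 and 43.4 CPM in mutant-labelled libraries 1 to 3 and 32.9, 45.7 and 43.4 CPM in wild-type libraries 1 to 3, and its log2 fold change was 0.0088 (SE 0.15). Bckdk, the kinase that restrains breakdown of branched-chain amino acids, was at 39.3 ± 2.65 CPM in mutant-labelled and 38.1 ± 3.91 CPM in wild-type libraries.

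All 4 genes of the ubiquitin system had a log2 fold change below 0, as had 7640 of all 14618 genes tested. For Mib1 the sign was not resolved (log2 fold change −0.31, SE 0.86), and of the 4 only Usp7 passed with the block. Usp7, a deubiquitinase that stabilises Mdm2 among other proteins, lies on chromosome 16 from 8689595 to 8792308 on the minus strand. It stood at 210.2, 224 and 215 CPM in mutant-labelled libraries 1 to 3 and 236, 241 and 247 CPM in wild-type libraries 1 to 3, with no overlap and the least spread of the 5 genes that fell. Its log2 fold change was −0.16 (SE 0.051, adjusted p = 0.517), and with the block the adjusted p was 0.0482, which became 0.169 without number 1 and 0.49 without number 3. Cul3, the scaffold of a family of ubiquitin ligases, stood at 110.1, 113 and 113 CPM in mutant-labelled libraries 1 to 3 and 116, 120.5 and 123.4 CPM in wild-type libraries 1 to 3, also without overlap. Its log2 fold change of −0.10 (SE 0.050) had an adjusted p of 0.751, or 0.215 with the block. Trip12, a ubiquitin ligase of the HECT class, was lower within all 3 numbers, with log2 differences of −0.0093, −0.15 and −0.13, and did not pass (adjusted p = 0.871, 0.256 with the block).

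Mib1, a ubiquitin ligase that makes Notch ligands active in the cell that sends the signal, stood apart from the other 36 genes. It stood at 4.29, 14.1 and 3.83 CPM in mutant-labelled libraries 1 to 3 and 2.99, 19.9 and 4.79 CPM in wild-type libraries 1 to 3. Both libraries numbered 2 stood far above each of the other 4, whatever the genotype. Its log2 fold change of −0.31 had an SE of 0.86, so these data do not resolve a genotype difference for it, and with the block it was −0.20 (SE 0.17, adjusted p = 0.594).

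**Figure D3:**
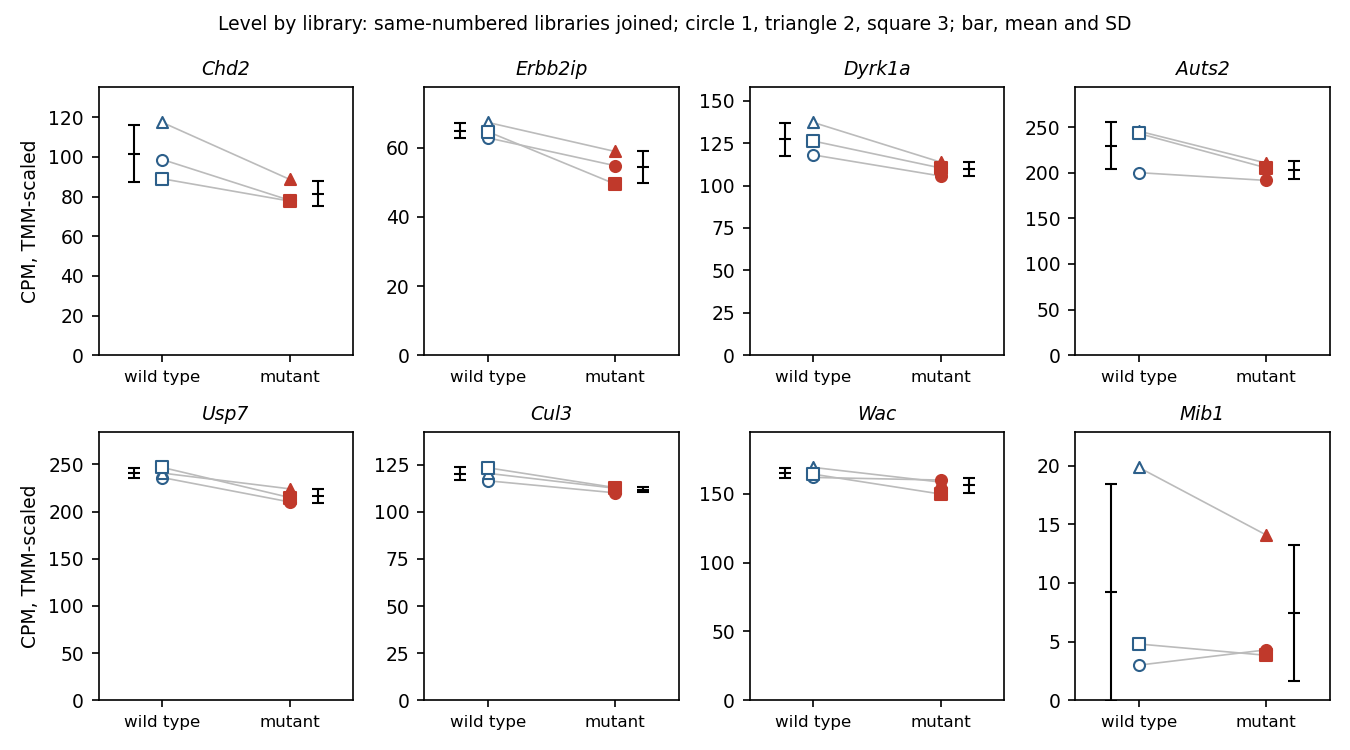
CPM in each library for the 5 genes that fell with the block, for Cul3 and Wac, whose groups do not overlap, and for Mib1. Grey lines join libraries of the same number, black bars give mean and SD of 3 libraries (cut at 0 for Mib1), and only Mib1 shows the libraries numbered 2, at 14.1 and 19.9 CPM, far above the rest.

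None of the genes of adhesion and cytoskeleton passed in either fit. Ank2, which encodes ankyrin-B, an adaptor between membrane proteins and the spectrin skeleton of axons, had the highest CPM of the 37, at 401 ± 28.3 CPM in mutant-labelled and 391 ± 31.8 CPM in wild-type libraries (SD, n = 3). Per kilobase of exon Nckap1 was the most abundant of the 21 signalling and other genes, at 44.4 ± 3.36 CPM per kb in wild type. Nckap1, a core subunit of the WAVE complex that starts actin branching, stood at 218, 212 and 239 CPM in mutant-labelled libraries 1 to 3 and 214, 208 and 239 CPM in wild-type libraries 1 to 3, a log2 fold change of 0.017 with a 95% interval of −0.066 to 0.10 with the block. Cntnap2, which clusters potassium channels along axons, stood at 59.0, 58.4 and 65.5 CPM in mutant-labelled libraries 1 to 3 and 68.7, 63.6 and 69.6 CPM in wild-type libraries 1 to 3. It was lower within all 3 numbers, though mutant-labelled library 3 lay above wild-type library 2, and the log2 fold change of −0.14 (SE 0.070) did not pass (adjusted p = 0.752, 0.161 with the block). The adhesion genes Cntn4 and Dscam had log2 fold changes of 0.090 (SE 0.19) and −0.019 (SE 0.15). Spast, a microtubule-severing enzyme, had one of 0.031 (SE 0.057). Its relative Katnal2 was the least abundant gene of all, at 0.656 ± 0.0817 CPM per kb in wild type, and stood at 2.69, 2.46 and 3.22 CPM in mutant-labelled libraries 1 to 3 and 3.03, 2.56 and 2.40 CPM in wild-type libraries 1 to 3.

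The groups overlapped in the genes of translation and of protein modification as well. Fmr1, the fragile X gene whose protein represses translation near synapses, stood at 93.4, 99.4 and 92.8 CPM in mutant-labelled libraries 1 to 3 and 98.7, 96.6 and 106 CPM in wild-type libraries 1 to 3, with a log2 fold change of −0.074 (95% interval −0.18 to 0.033 with the block, adjusted p = 0.477). Gigyf1, part of a complex that represses messenger RNA through the cap, Naa15, the auxiliary subunit of the main N-terminal acetyltransferase, and Dip2a had log2 fold changes of −0.0086, 0.040 and 0.050 with SEs of 0.072, 0.098 and 0.14. Dip2a was higher within all 3 numbers, by 0.060, 0.043 and 0.048 on the log2 scale, and did not pass with the block (adjusted p = 0.604). Across the 32 genes that did not pass with the block, 29 had a 95% interval inside ±0.3 on the log2 scale, a change of up to 23.1% upward. The exceptions were Phf3, Mib1 and Katnal2, for which −0.17 to 0.42, −0.57 to 0.17 and −0.35 to 0.46 were not excluded.

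The difference that most of the 37 genes shared was between library numbers and not between genotypes. Set against the other 4 libraries, the 2 libraries numbered 2 were higher for 32 of the 37 genes, with a median difference of 0.16 on the log2 scale, against −0.0182 over all genes tested. For 22 of the 37 genes, or 59.5%, that difference was above the upper quartile of all genes, 0.12, which 25% of genes exceed. It was 2.07 for Mib1, 0.50 for Tsc1, 0.43 for Phf3, 0.40 for Myt1l and 0.39 for Mbd5, and below 0 for Katnal2, Bckdk, Nckap1, Cntnap2 and Ilf2, at −0.16 to −0.059. Chromatin and transcription genes had a median of 0.27 and signalling and other genes one of 0.13. Only 35 of all genes tested, 0.239%, had a larger difference than Mib1.

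Of a gene's sum of squares over the 6 libraries, the library number took a median of 82.2% for the 37 genes and the genotype 4.31%, against 56.4% and 13.5% over all genes tested. The number has 3 levels and the genotype 2, so noise alone would give the number a larger share than the genotype on average. Genotype took more than 50% in 7 of the 37 (18.9%), a share near the 15.5% of all genes tested. The 7 were Usp7, Cul3, Erbb2ip, Dyrk1a, Chd2, Wac and Cntnap2, from 85.1% for Usp7 to 53.5% for Cntnap2, and all were lower in mutant-labelled libraries. In Met, Dscam, Myt1l, Dip2a, Nckap1 and Tsc2 the number took 96.7% to 99.1%. The rise in the libraries numbered 2 was larger in wild type, where 31 of the 37 genes were above their own mean in library 2, with a median deviation of 0.19 on the log2 scale, than in the mutant-labelled library 2, where 22 were, with a median of 0.068. The difference within number 2 was lower for the 37 genes than in the other numbers, with medians of 0.00253, −0.0981 and −0.00375 for numbers 1, 2 and 3. Without wild-type library 2 the median fold change of the 37 genes turned from −0.024 to 0.044.

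The genes are long, and the number-2 difference moved with length across the whole table. Their longest transcripts had a median of 6.55 kb and their genes a median span of 85.9 kb, against 3.45 kb and 24.9 kb over all genes tested. By longest transcript, 25 of the 37 genes were in the class, of 5 equal ones, with transcripts over 5.35 kb. In that class the 2894 genes had a median number-2 difference of 0.20 on the log2 scale and the 25 members one of 0.26, while the class with the shortest transcripts had −0.077. By transcript length, the median log2 fold change between genotypes was −0.029 in the shortest class, −0.0012 in the longest and −0.016 to 0.0093 between. With the block, 2.04% of the longest and 1.11% of the shortest class were called lower, and 2.56% and 0.587% higher. By gene span, the class with the longest genes had the lowest median log2 fold change, −0.030, against −0.015 to 0.0037 in the other classes. All 5 genes that fell with the block were among the 20 members with a span over 78.8 kb, a class in which 2.97% of its 2895 genes were called lower with the block and 2.31% higher. Usp7 is in that class by its GENCODE span, while from its RefSeq start the span is 48.7 kb. The part of length in the falls was not tested.

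**Figure D4:**
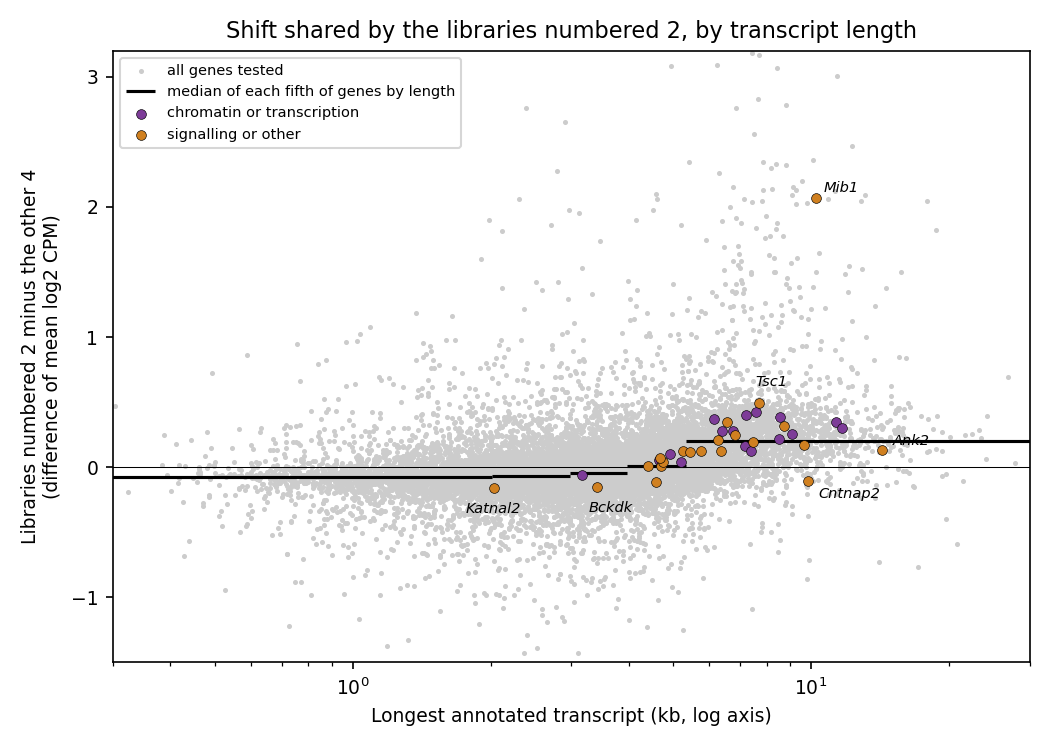
Difference of mean log2 CPM between the 2 libraries numbered 2 and the other 4, for all genes tested (grey) and the 37 genes (coloured), against the longest annotated transcript in kb on a log axis. Black lines are medians of 5 equal classes of genes by length, rising from −0.077 to 0.20, and Mib1 stands at 2.07.

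Few of the partners of the 37 genes in their complexes and pathways passed the tests. Of 205 such genes in 22 lists, 196 were tested and none passed without the block. With it 5 of the 196 rose and 1 fell, beside 1.97% and 1.49% of all genes tested. Setd8, the enzyme that places the first methyl group on the histone H4 lysine that Suv420h1 methylates further, rose from 66.4 ± 7.90 CPM to 83.7 ± 5.93 CPM (SD, n = 3, log2 fold change 0.34, SE 0.054, adjusted p = 0.00304 with the block), and all its mutant-labelled libraries lay above all wild-type ones. Of the adaptors that bring substrates to Cul3, Klhl9 rose by 0.31 (SE 0.053) and Kbtbd8 by 0.65 (SE 0.13), while Klhl13 fell by 0.24 (SE 0.049). The ring finger gene Pcgf3, of Polycomb complexes that can hold Auts2, rose by 0.34 (SE 0.069, adjusted p = 0.0206). Ank1, a relative of Ank2, rose by 0.55 (SE 0.062, adjusted p = 0.000158), from 34.3 ± 9.18 CPM to 50.2 ± 11.5 CPM. For Klhl9 too, all mutant-labelled libraries lay above all wild-type ones, while for Kbtbd8, Klhl13, Pcgf3 and Ank1 the groups overlapped.

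None of the 26 BAF subunits tested and none of the 21 genes of the mTOR pathway passed in either fit, with list medians of 0.017 and 0.00296. Of the 9 CHD genes only Chd2 passed, and the other 8 had log2 fold changes of −0.11 to 0.054. The 13 contactin and Caspr genes had the lowest list median, −0.14, which was the value of Cntnap2, with 9 below 0 and none past the test. Their median SE was 0.19 without the block, at a median level of 12.7 CPM. The 12 WAVE complex genes, the 8 genes of the fragile X family and the 9 genes of branched-chain amino acid breakdown likewise had none past the test, with list medians of −0.047, −0.00686 and −0.018.

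**Figure D5:**
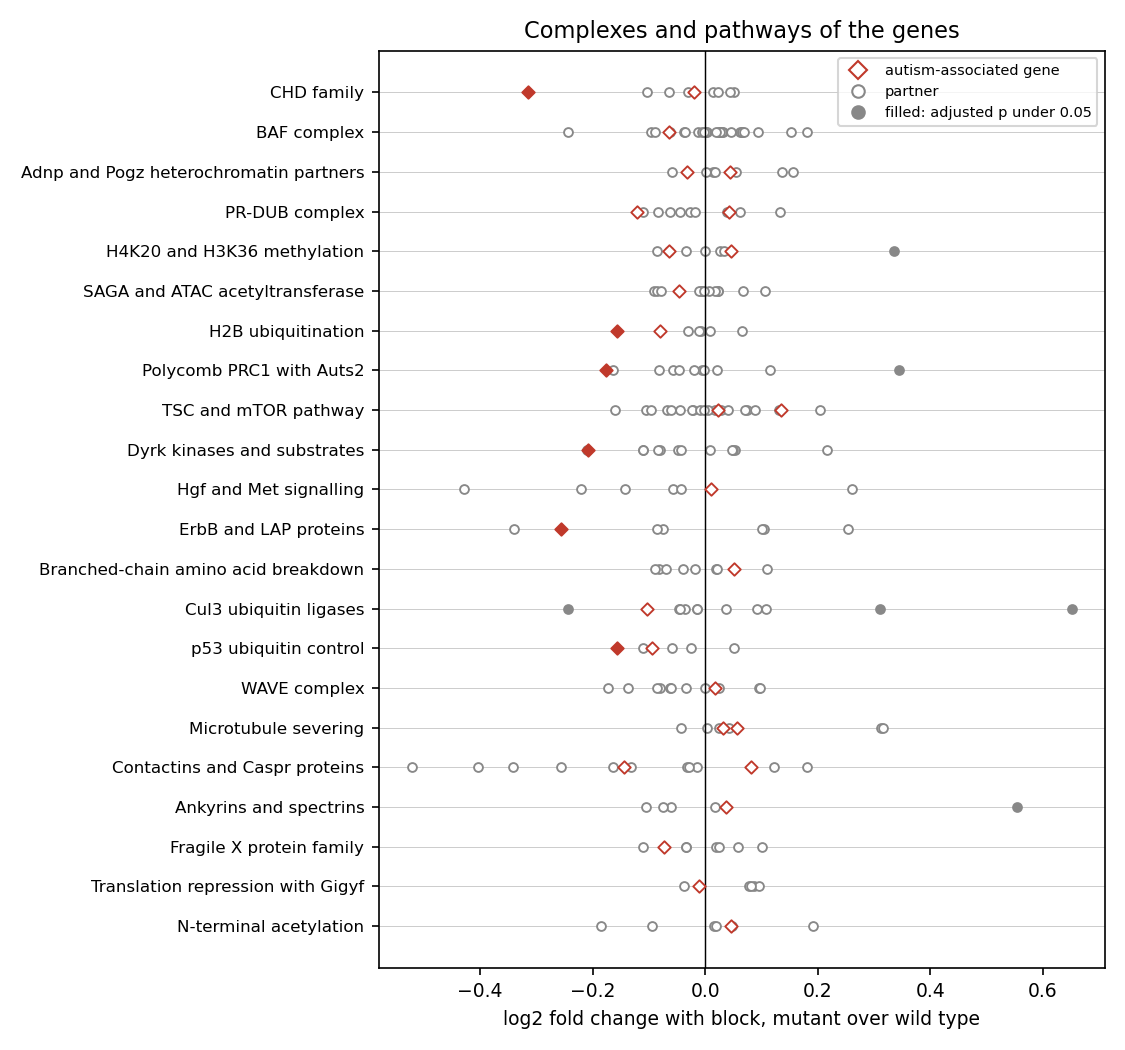
Log2 fold change with the block for the genes of 22 complexes and pathways, with diamonds for the 37 autism-associated genes and circles for their partners, filled where the adjusted p is under 0.05. Filled diamonds lie left of 0, and among the filled circles 5 lie right of 0 and 1 lies left of it.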

How the data were processed

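RNA from pooled neocortex was sequenced from stranded libraries (3 mutant-labelled, 3 wild-type), and the authors deposited raw read counts per gene symbol. Per the submitters' processing notes, TopHat2 2.0.9, Bowtie2 2.1.0, HTSeq 0.5.3p9, CASAVA 1.8.2 and build mm10 were used, without roles or settings given. Counts were tested in edgeR 4.0.16 (R 4.3.3) by the robust quasi-likelihood test after TMM scaling and its expression filter, which kept 14618 of 23420 genes, with Benjamini-Hochberg adjustment over all of them at 0.05. The scripts were tested on simulated data. The simulation took its number effects from these libraries, so it cannot check whether libraries pair by number. Of 23420 genes, 4515 had no count, and log2 CPM used a prior count of 2.

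Libraries were compared by genotype without a block (main) and with the library number as a replicate block. Deviations from the group means correlated at 0.614, 0.514 and 0.467 between same-numbered libraries, above the bound of 0.1, and at −0.483 to −0.0684 between others. Deviations within a group cancel out, so positive values for same-numbered libraries force negative ones among the others. The negative range is therefore no separate evidence. Same-numbered libraries were treated as pairs. That pairing comes from the data, since the labels do not say what a number shares. P-values without the block measure the spread between these pools. Those with the block measure the spread left within the inferred pairs, after differences between numbers are removed. Same-group libraries differed by more than sampling noise, so none was counted as a repeat. Intervals are 95% and come from the model.

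The 37 genes, the partner lists and the markers were chosen with earlier results of these data known. Named in full are Tshz3, genes past the test in either fit, genes whose groups do not overlap, and in each group the highest and lowest per length. Of partners, those past the test are named. Mib1, Tsc1, Phf3, Chd8, Met, Myt1l, Cntnap2 and Fmr1 were added after their values were seen. Gene positions and lengths are from GENCODE M21 (GRCm38), promoter windows from RefSeq (GRCm38.p6). Alternatives were RLE scaling, other filters, DESeq2 1.42.0, the block, and leaving out libraries. Some marker and partner results are not reported here.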

Additional observations from a re-analysis of the deposited data

How the results depend on the processing

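RLE scaling, no filter, a stricter filter and DESeq2 left all 37 genes without a call and with the sign they had. Over 15 alternatives per gene, 555 values in all, 473 kept sign and side of the threshold, 18 passed the test that had not, and 64 changed sign, the latter in 25 genes. The 12 other genes kept their sign throughout. Of all genes, 4 were called lower and 7 higher without the block, beside 9 and 11 with no filter, 42 and 66 with DESeq2, 218 and 288 with the block, and 2 to 14 and 1 to 21 with 1 library left out, the highest both without wild-type replicate 2.

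With the replicate block, 5 members were called lower, and of the partners 1 was lower and 5 were higher. With the block, leaving out number 1, 2 or 3 gave 4, 5 and 1 members lower, and leaving out number 2 also gave 3 higher (Suv420h1, Phf3 and Tsc1). Of all genes these fits called 153, 751 and 27 lower and 141, 1118 and 35 higher. Without number 3 the blocked median of the signalling genes was −0.0041. Without wild-type replicate 2 or another library, the median log2 fold change ranged from −0.087 to 0.044 for all members, −0.11 to 0.052 for chromatin genes and −0.067 to 0.034 for signalling genes. Leaving out both libraries numbered 2, a choice made after seeing the data, called no member and changed the sign for Chd8 (0.032), Adnp (0.048), Bckdk (−0.017) and Mib1 (0.067). The causes of these changes were not tested.

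Leaving out 1 library of 6 without the block, log2 fold changes that changed sign ranged from −0.085 to 0.082 for Chd8, −0.18 to 0.11 for Myt1l, −0.033 to 0.11 for Bckdk and −0.13 to 0.10 for Dscam. They ranged from −0.064 to 0.052 for Gigyf1, −0.12 to 0.22 for Suv420h1, −0.077 to 0.22 for Mbd5 and −0.057 to 0.17 for Pogz. The range was −0.029 to 0.34 for Tsc1, −0.047 to 0.10 for Tsc2, −0.13 to 0.12 for Met and −0.074 to 0.18 for Dip2a. Values ran from −0.15 to 0.035 for Kat2b, −1.18 to 0.94 for Mib1, −0.040 to 0.26 for Cntn4 and −0.030 to 0.079 for Nckap1. The lowest and highest were −0.047 to 0.16 for Katnal2, −0.022 to 0.35 for Phf3, −0.025 to 0.095 for Ank2 and −0.011 to 0.055 for Spast. Ranges were −0.041 to 0.16 for Naa15, −0.16 to 0.089 for Arid1b, −0.082 to 0.044 for Adnp and −0.14 to 0.060 for Setd5. The remaining one was −0.26 to 0.019 for Asxl3. Leaving out 1 number with the block, the ranges were −0.060 to 0.15 for Suv420h1, −0.021 to 0.11 for Mbd5, −0.012 to 0.028 for Met and −0.045 to 0.00056 for Dscam. Others were −0.041 to 0.015 for Gigyf1, −0.053 to 0.13 for Naa15, −0.055 to 0.032 for Chd8 and −0.090 to 0.048 for Adnp. The last were −0.017 to 0.11 for Bckdk, −0.44 to 0.087 for Mib1 and −0.12 to 0.18 for Katnal2. With 3 pools per group, the median SE of a member's log2 fold change was 0.09 without and 0.05 with the block.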
